A study of Mus musculus with 2 samples.

Results

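The miR-290 to miR-295 cluster is a group of mouse microRNA (miRNA) hairpin genes on chromosome 7, and it is described here by the exact forms of its small RNAs in J1 mouse embryonic stem cells. Its 9 members, out of 2201 genes of type miRNA in the GENCODE M21 annotation, were taken by name: Mir290a, Mir290b, Mir291a, Mir291b, Mir292, Mir292b, Mir293, Mir294 and Mir295. The cells were kept for 6 h in SC1, also called pluripotin, at 1 µM, or in the same volume of its solvent DMSO; SC1 is a compound that supports self-renewal of mouse embryonic stem cells. Both conditions used the same J1 line, of strain 129S4/SvJae and adapted to gelatin, in serum replacement medium with 1000 U/mL LIF, and the labels give 1 sample to each. The study set out to find miRNAs regulated by SC1. The deposited SC1 list held 1275599 reads of 3 to 17 nt and the deposited DMSO list 18870345 reads of 18 to 44 nt. As the lists share no tag length, each may hold only some lengths of its library, and whether they come from separate libraries could not be checked. Values are therefore given as those of the list labelled SC1 or DMSO, no level was compared between them, and no value has a replicate error.

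A miRNA hairpin is cut by Drosha and then by Dicer before it acts. Drosha frees the hairpin from the primary transcript and so sets the 5′ end of the 5p arm, and Dicer then removes the loop and so sets the 5′ end of the 3p arm. Bases 2 to 8, the seed, pair with target messenger RNAs, so a 5′ end moved by 1 base gives another seed. At the 3′ end bases can be trimmed off, and nucleotidyl transferases can add bases. Variants of one arm that differ in their ends are called isomiRs. The cluster is the main miRNA locus of mouse embryonic stem cells, where miRNAs with the AAGUGCU seed are known to promote rapid cycling and self-renewal.

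The mature sequences below, from RefSeq (GRCm38.p6), are grouped by seed because the seed is what the isomiRs change. Capitals mark bases 2 to 8. RefSeq gave 17 of the 18 mature names of the members, and miR-292-3p is named only. The first group holds the 3p arms, in which 3 members share AAGUGCU and the seed of miR-293-3p is GUGCCGC.
miR-291a-3p: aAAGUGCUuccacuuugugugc
miR-294-3p: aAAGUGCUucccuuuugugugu
miR-295-3p: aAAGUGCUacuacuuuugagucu
miR-290a-3p: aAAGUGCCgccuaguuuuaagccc
miR-291b-3p: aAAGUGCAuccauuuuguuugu
miR-293-3p: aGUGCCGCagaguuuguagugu

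The second group holds the 5p arms, in which CUCAAAC is shared by Mir290a, Mir292 and Mir293, and AUCAAAG by Mir291a and Mir291b.
miR-290a-5p: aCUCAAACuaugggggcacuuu
miR-292-5p: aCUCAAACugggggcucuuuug
miR-293-5p: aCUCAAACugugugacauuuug
miR-294-5p: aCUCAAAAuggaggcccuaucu
miR-295-5p: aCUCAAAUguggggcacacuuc
miR-291a-5p: cAUCAAAGuggaggcccucucu
miR-291b-5p: gAUCAAAGuggaggcccucucc

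The hairpins lie within 2216 bases of GRCm38, chromosome 7, 3218626 to 3220841. On the plus strand stand Mir290a (3218626 to 3218708), Mir291a (3218919 to 3219000), Mir292 (3219189 to 3219270), Mir291b (3219482 to 3219560), Mir293 (3220343 to 3220422), Mir294 (3220641 to 3220724) and Mir295 (3220773 to 3220841). Mir290b (3218638 to 3218695) and Mir292b (3219198 to 3219259) are annotated on the minus strand, opposite Mir290a and Mir292. The protein-coding gene Nlrp12, on the minus strand at 3218784 to 3249740, overlaps 7 of the hairpins with an exon, and the exceptions are Mir290a and Mir290b. In DMSO, exact tags of 18 to 26 nt on the members held 629250 reads in 329 distinct tags, 28.2% of the reads on all miRNA hairpins. No read of these matched a GENCODE transcript outside the miRNA genes, and 36 reads fitted both Mir291a and Mir291b and were split equally. The cells' miRNAs were checked with 11 hairpins known from embryonic stem cells, 6 of them members, which held 624045 DMSO reads. Nearly all of these were on the members, so the total is no check apart from the cluster. Outside it, the miR-302 hairpins held 286 reads and Mir367 held 1. The 6 hairpins known from fibroblasts held 13881 reads, 10520 of them on Mir21a and 0 on Mir214.

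The hairpins of the cluster split by the arm that held more reads. Of the 7 plus-strand hairpins, 3 had more 5p reads (Mir290a, Mir291a and Mir291b) and 4 had more 3p reads (Mir292, Mir293, Mir294 and Mir295). The minus-strand hairpins were nearly silent, with 10 reads on miR-290b-5p and 0 on every arm of Mir292b, which allows up to 3 reads, or 0.000477% of the cluster. Over the cluster the 5p arms took 44.2% of reads, but miR-290a-5p and miR-293-3p alone made up 67.5% of it, and without them the 5p share was 34.9%.

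Mir290a was the most one-sided hairpin, with 207116 reads on the 5p arm and 343 on the 3p arm, a 5p share of 99.8% (exact 95% binomial interval 99.8 to 99.9, which like all intervals here covers counting error only). Mir291a had 27525 5p reads and 9087 3p reads, a 5p share of 75.2% (interval 74.7 to 75.6). In Mir291b, whose 5p arm differs little from that of Mir291a, the counts were 4483 and 999 and the 5p share 81.8% (interval 80.7 to 82.8). These are exact reads. With reads that carry untemplated 3′ A or T added to their arm, the 5p shares were 99.8% in Mir290a, 65.7% in Mir291a and 84.4% in Mir291b. These 3 hairpins leave the AAGUGC arm as the minor one.

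Mir292 was the most balanced, with 11242 5p reads and 25660 3p reads, a 5p share of 30.5% (interval 30.0 to 30.9). Mir293 stood at the other end, with 13984 5p reads against 217926 on miR-293-3p, a 5p share of 6.03% (interval 5.93 to 6.13). Mir294 had 7414 and 54650 reads and Mir295 6586 and 42225, so their 5p shares of 11.9% and 13.5% lay close together. The intervals of neighbours in this order did not overlap. With reads that carry untemplated 3′ A or T added to their arm, the 5p share of Mir292 was 38.5%, outside its interval. The 5p shares of Mir293, Mir294 and Mir295 were then 6.11%, 11.9% and 13.5%. Ligation and amplification can favour one sequence over another, and their part in the arm ratios was not tested.

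**Figure D1:**
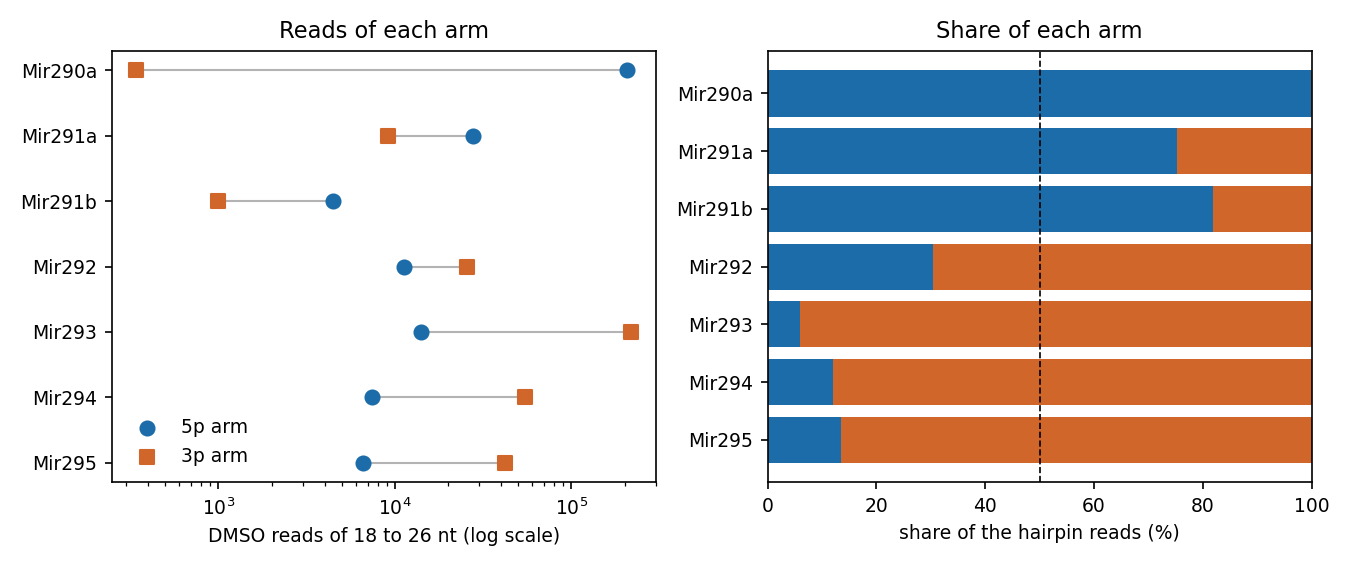
DMSO reads of 18 to 26 nt on the 5p and 3p arms of the 7 plus-strand hairpins (left, log scale) and the share of each arm in percent (right; the dashed line marks equal arms). Mir290a is almost all 5p (99.8%) and Mir293 has the lowest 5p share (6.03%); there is 1 sample, so no error bars.

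The 5′ start decides the seed, and in most arms it was fixed. There were 13 arms with 1000 or more DMSO reads, 7 of them 5p and 6 of them 3p, and 93.7% of all reads of the cluster lay at the most frequent start of their arm. The sharpest start was that of miR-293-3p, where 99.5% of 217926 reads began at the RefSeq base. The start shares of miR-292-5p, miR-294-5p, miR-293-5p and miR-294-3p were 99.0%, 99.0%, 98.9% and 98.7%. miR-290a-5p followed with 97.8%, and miR-291a-5p, miR-295-5p, miR-291b-3p and miR-291a-3p had between 91.1% and 95.9%.

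The remaining arms, miR-291b-5p, miR-292-3p and miR-295-3p, had less than 75% of reads at their most frequent start. That is 3 of 13, against 13.2% of the 121 annotated arms with 1000 or more DMSO reads over all miRNAs, and this threshold was chosen after the values were seen. The median start share was 95.9% over the cluster's arms and 98.6% over the other 108 arms. Because miR-292-3p is not in the RefSeq table, its starts are counted from its own most frequent one.

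miR-295-3p was the only one of 12 arms with a RefSeq entry whose most frequent start was not the RefSeq start, a pattern seen in 5.83% of the arms with an entry over all miRNAs. Its tags are shown because the shift replaces the AAGTGCT seed of the family, with capitals again at bases 2 to 8.
miR-295-3p at the RefSeq start: aAAGTGCTactacttttgagtct
miR-295-3p, 1 base later: aAGTGCTActacttttgagtct

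The later start held 25709 reads, 60.9% of the arm (interval 60.4 to 61.4), and the RefSeq start 16347 reads, 38.7%. The tags above had 22693 and 14411 reads in the order later start, RefSeq start. Both starts ran mainly to the same 3′ end, which held 88.3% of the reads at the later start and 88.2% at the RefSeq start, so the forms differ in length, 22 nt and 23 nt. Most miR-295-3p reads therefore carried AGTGCTA and not AAGTGCT.

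In miR-292-3p the starts were nearly even. The first held 12935 reads, 50.4% (interval 49.8 to 51.0), with the seed AAGTGCC, and the next base 12673 reads, 49.4% (interval 48.8 to 50.0), with AGTGCCG. The tags again shared a 3′ end, at 90.0% of the reads of the first start and 97.2% of those of the later one, and were 24 nt and 23 nt long. The minor arm miR-290a-3p, with 343 reads, was spread over 3 starts with 122, 135 and 83 reads, the first of them the RefSeq start. miR-291a-3p had a smaller second start 1 base later, with 666 reads, or 7.33%, and the seed AGTGCTT.

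The 5p arms had a single case of this kind, miR-291b-5p, where the second start lay 2 bases earlier.
miR-291b-5p at the RefSeq start: gATCAAAGtggaggccctctcc
miR-291b-5p, 2 bases earlier: tCGATCAAagtggaggccctct

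The earlier start held 1121 reads, 25.01% of the arm (interval 23.7 to 26.3), and the RefSeq start 3323 reads, 74.1%. The start between them had 7 reads. Here the 3′ end moved with the start, since 3.48% of the reads at the earlier start ended at the most frequent 3′ end of the arm, against 47.3% of those at the RefSeq start. The most frequent length was 22 nt at both starts. The homologous miR-291a-5p had 632 reads, 2.30%, 1 base earlier.

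**Figure D2:**
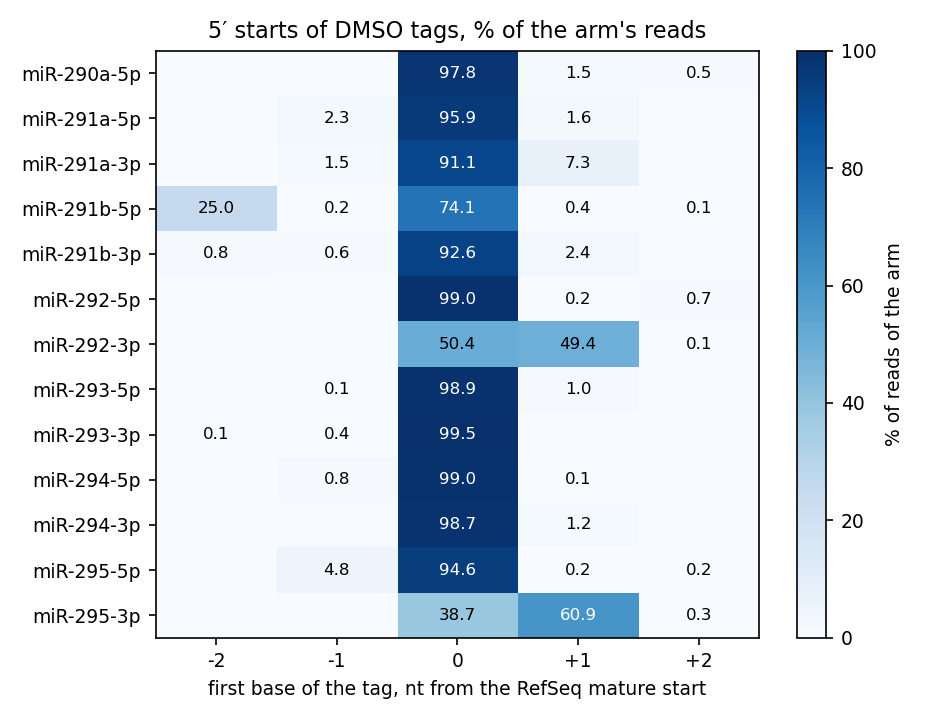
Share of the exact DMSO reads of each arm, in percent, by the distance of the first base of the tag from the RefSeq mature start (for miR-292-3p, from its most frequent start). The split rows are miR-291b-5p, with 25.01% at 2 bases earlier, and miR-292-3p and miR-295-3p, with 49.4% and 60.9% at 1 base later.

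Counted by the seed of the exact reads, the cluster was led by CTCAAAC and GTGCCGC rather than by the AAGTGCT family. CTCAAAC was on 227571 reads, 36.2% of the cluster, of which 202611 were miR-290a-5p, 13826 miR-293-5p and 11134 miR-292-5p. GTGCCGC, the seed of miR-293-3p, was on 216994 reads, 34.5%. AAGTGCT was on 78583 reads of the cluster, 12.5%, with 53958 from miR-294-3p, 16347 from miR-295-3p and 8278 from miR-291a-3p. AGTGCTA, the shifted seed of miR-295-3p, was on 25709 reads, against 16347 with AAGTGCT from the same arm. Reads with untemplated 3′ bases, described below, are left out of these counts although they keep the seed. At the RefSeq start of miR-291a-3p there were 5854 such reads with A or T beside the 8278 exact reads.

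Some seeds were reached from different hairpins by different shifts. AGTGCCG was on 13614 reads, of which 12673 were miR-292-3p, 806 were miR-293-3p started 1 base early and 135 were miR-290a-3p started 1 base late. GTGCCGC was likewise on 83 reads of miR-290a-3p and 33 of miR-292-3p besides miR-293-3p. Over all miRNA hairpins AAGTGCT was on 78745 reads, so 99.8% of them came from the cluster. The 4 miR-302 hairpins, also known for this seed, had 286 reads in all, 78 with AAGTGCT. A further 75 reads with AAGTGCT were on the genes of miR-17, miR-20a, miR-20b, miR-93, miR-106a and miR-106b. The related seed AAAGTGC, of miR-17, miR-20a, miR-20b, miR-93, miR-106a and miR-106b, was on 14282 reads, of which 14116 came from those 6 genes and 166 from the cluster, 140 of them miR-291a-3p started 1 base early.

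Tag length was narrow in most arms, and 84.8% of the reads of the cluster were of 21 to 23 nt. miR-294-3p had 96.5% of its reads at 22 nt, miR-294-5p 95.3% at 22 nt, miR-293-5p 95.1% at 21 nt and miR-291b-3p 92.5% at 22 nt. The RefSeq entry of miR-293-5p is 1 base longer than its most frequent tag. miR-295-5p had 83.7% at 23 nt, against 22 nt in RefSeq. The most frequent tag was the RefSeq sequence itself in 7 of 12 arms, both arms of Mir291a, Mir291b and Mir294 and miR-293-3p. By arm the 21 to 23 nt share had a median of 94.2% over the cluster and 90.5% over the other 108 arms. It was lowest in miR-292-3p, at 53.3%, where 50.3% of reads were of 23 nt and 45.4% of 24 nt.

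miR-290a-5p was the widest of the abundant arms. Its hairpin runs on into a stretch of T, and the 3′ end fell at different places in it.
miR-290a-5p, 22 nt: aCTCAAACtatgggggcacttt
miR-290a-5p, 23 nt: aCTCAAACtatgggggcactttt
miR-290a-5p, 24 nt: aCTCAAACtatgggggcacttttt

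These tags had 55458, 88091 and 53353 reads, in the order of length. By length the arm had 27.4% of reads at 22 nt, 43.7% at 23 nt and 25.8% at 24 nt. A T added to such an end cannot be told from a templated T, so part of the longer forms may be either. miR-291b-5p was also wide, with 25.1% of reads at 21 nt and 50.3% at 22 nt, and miR-291a-5p had 62.2% at 22 nt and 20.03% at 23 nt.

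miR-293-3p had a second, short form. Its reads were 82.5% at 22 nt, 5.42% at 21 nt, 2.19% at 20 nt, 2.13% at 19 nt and 4.41% at 18 nt. The 18 nt share was higher than the 19 nt and 20 nt shares, and 18 nt is the shortest length of the DMSO list. Among the cluster's arms the median 18 nt share was 0.0890%, and the next highest was that of miR-291a-5p at 1.48%. The median over the other 108 arms was 0.262% with quartiles of 0.0609% and 1.41%. Some of these arms had far higher 18 nt shares than miR-293-3p, up to 93.1% in miR-296-3p. The forms are shown with the seed in capitals.
miR-293-3p, 22 nt: aGTGCCGCagagtttgtagtgt
miR-293-3p, 18 nt: aGTGCCGCagagtttgta

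**Figure D3:**
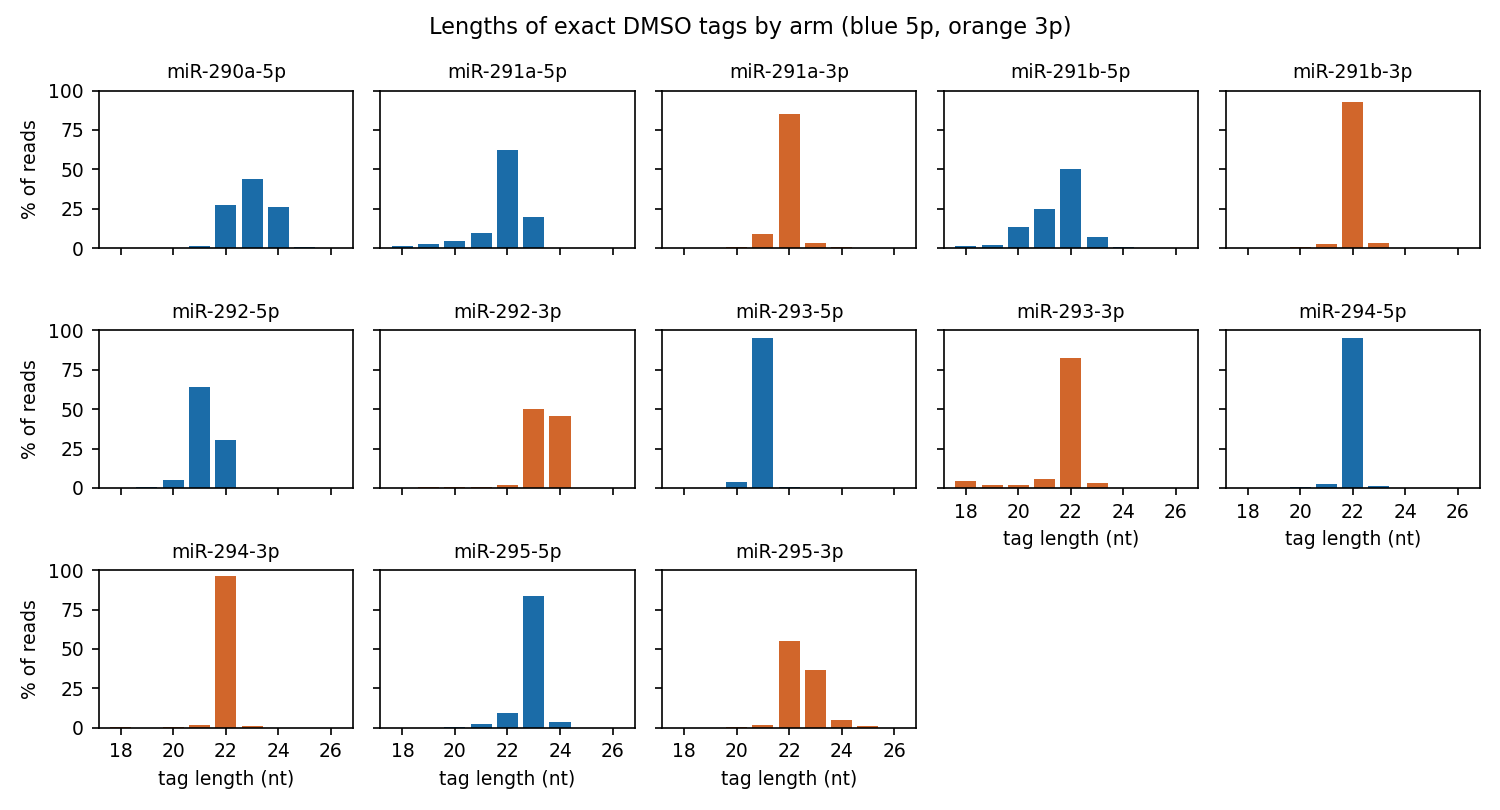
Length of exact DMSO tags in nt (x axis) as a percentage of the reads of each arm (y axis), for the 13 arms with 1000 or more reads. miR-290a-5p spreads over 22 to 24 nt, miR-292-3p and miR-295-3p fall on neighbouring lengths, and miR-293-3p rises again at 18 nt (4.41%).

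Untemplated 3′ bases were counted on tags that matched a hairpin up to the last 1 to 3 bases, all of them A or T, which do not continue the hairpin. They made up 35422 reads, 5.33% of exact and tailed reads together (interval 5.28 to 5.38), and 8.54% without miR-290a-5p and miR-293-3p. Tags with 1 to 3 untemplated C or G, counted in the same way, made up 1915 reads, 0.303%. An added base that continues the hairpin cannot be seen. C could be seen on 5.37%, 6.44% and 5.79% of the exact reads of miR-291a-3p, miR-292-3p and miR-295-3p. G could be seen on 5.08% of those of miR-292-5p and 4.61% of those of miR-293-5p. By A or T tails the arms ranged from 1.07% in miR-294-3p to 40.7% in miR-291a-3p. Of the 13 arms, 3 were at 20% or more (miR-291a-3p, miR-291b-5p and miR-292-5p), against 15.7% of the 121 arms over all miRNAs, with a threshold chosen after the values were seen. The median was 5.05% over the cluster and 6.68% over the other 108 arms.

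miR-291a-3p was tailed with T, which stands for U in the RNA. It had 6243 tailed reads beside 9087 exact reads, 40.7% (interval 39.9 to 41.5), and 85.5% of the tailed reads had T only. At its most frequent 3′ end there were 8284 exact reads, 3662 with T, 841 with TT, 316 with TTT and 187 with A. The tail is in capitals below, and the tags had 3553 and 820 reads.
miR-291a-3p with T: aaagtgcttccactttgtgtgcT
miR-291a-3p with TT: aaagtgcttccactttgtgtgcTT

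The other 3p arms of the AAGUGC family were tailed less. miR-294-3p had 591 tailed reads beside 54650 exact ones, 1.07% (interval 0.986 to 1.16), although T could be seen on only 1.76% of its exact reads, because the next hairpin base is a T at the other ends. Where it could be seen, a single T was on 6.97% of miR-294-3p reads and on 31.1% of miR-291a-3p reads. These shares come from unlike ends. In miR-294-3p 66 of the 72 reads with a single T sat 1 base past the most frequent end. In miR-291a-3p 3662 of 4098 sat at the most frequent end. miR-295-3p had 2055 tailed reads, 4.64% (interval 4.45 to 4.84), 70.9% of them with T only. A single T was on 3.16% of miR-295-3p reads where T could be seen. For a single C the share was 9.62%, but C could be seen on only 5.79% of its exact reads. miR-291b-3p had 111 tailed reads of 1110 (interval 8.30 to 11.9%), of which 81.1% had T only and 76 sat on an end 2 bases short of its most frequent one, where there were 31 exact reads. A substitution in the last bases of a longer tag, such as a sequencing error, cannot be told apart from a tail on a shorter one.

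More T-only than A-only tails were found in 3 of 13 arms (miR-291a-3p, miR-291b-3p and miR-295-3p, each of them 3p), against 34.7% of the 121 arms. The other arms had more A-only tails, but in several of them T was hidden by the hairpin. miR-290a-5p had 12639 tailed reads, 5.75% (interval 5.65 to 5.85), 86.3% with A only, and T could be seen on 0.0415% of its exact reads. Along its stretch of T the tailed share was 10.9% and 11.5% at the ends 4 and 3 bases short of the most frequent one, with 205 and 701 exact reads. It was highest, at 30.3%, at 2 bases short, then 9.88%, 4.10%, 2.40% and 1.74% at the next ends. Tailed tags could be at most 26 nt long. Tags from the RefSeq start to the ends at 2.40% and 1.74% therefore left room for fewer than 3 tail bases. miR-293-3p had 3705 tailed reads, 1.67% (interval 1.62 to 1.73), and 93.4% had A only, with T visible on 9.68% of exact reads.

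miR-292-5p and miR-291b-5p carried both bases where T was visible on most reads. miR-292-5p had 5188 tailed reads beside 11242 exact ones, 31.6% (interval 30.9 to 32.3), with 2506 A only and 2335 T only. The base depended on the end. The 21 nt end, in a run of T, had 845 reads with A and 334 with T, and the end 1 base longer, in G, had 643 with A and 1919 with T.
miR-292-5p, 21 nt: aCTCAAACtgggggctctttt
miR-292-5p, 22 nt: aCTCAAACtgggggctcttttg
miR-292-5p, 22 nt with T: actcaaactgggggctcttttgT

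These tags had 7178, 3391 and 1898 reads, and the last is the 22 nt tag with its tail in capitals. miR-291b-5p had 1515 tailed reads, 25.3% (interval 24.2 to 26.4), 64.6% of them A only, and also the highest share of C or G tails, at 1.91%. Its homolog miR-291a-5p had 6.40% (interval 6.13 to 6.69), but T could be seen on 25.1% of its exact reads, against 97.1% for miR-291b-5p. At the end of miR-291a-5p 1 base past the most frequent one, where T is visible, 15.1% of reads were tailed. Of these tails 545 were A only and 285 T only. At the ends 4 and 2 bases short, where T is also visible, the shares were 6.21% and 6.75%. A could be seen on 99.9% of the exact reads of miR-291a-5p and on 100% of those of miR-291b-5p. A-only tails were on 4.29% and 16.3% of the reads of these arms, in that order.

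The tailed share differed by start in miR-295-3p, miR-291a-3p and miR-291b-5p by more than counting error. In miR-295-3p the RefSeq start had 1261 tailed reads, 7.16% (interval 6.78 to 7.55), and the later start 784, 2.96% (interval 2.76 to 3.17). In miR-291a-3p the RefSeq start had 41.4% (interval 40.6 to 42.2) and the start 1 base later 34.6% (interval 31.7 to 37.6). In miR-292-3p the shares were 2.01% at the first start and 2.42% at the later one, with intervals of 1.78 to 2.26 and 2.16 to 2.70 that overlap. In miR-291b-5p the earlier start had 20.7% (interval 18.6 to 22.9) and the RefSeq start 26.3% (interval 25.1 to 27.6), which do not overlap. In this arm the 3′ end moved with the start, so start and end cannot be told apart here. By end, 43.2% of reads were tailed at 1 base short of the most frequent end and 11.3% at that end.

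**Figure D4:**
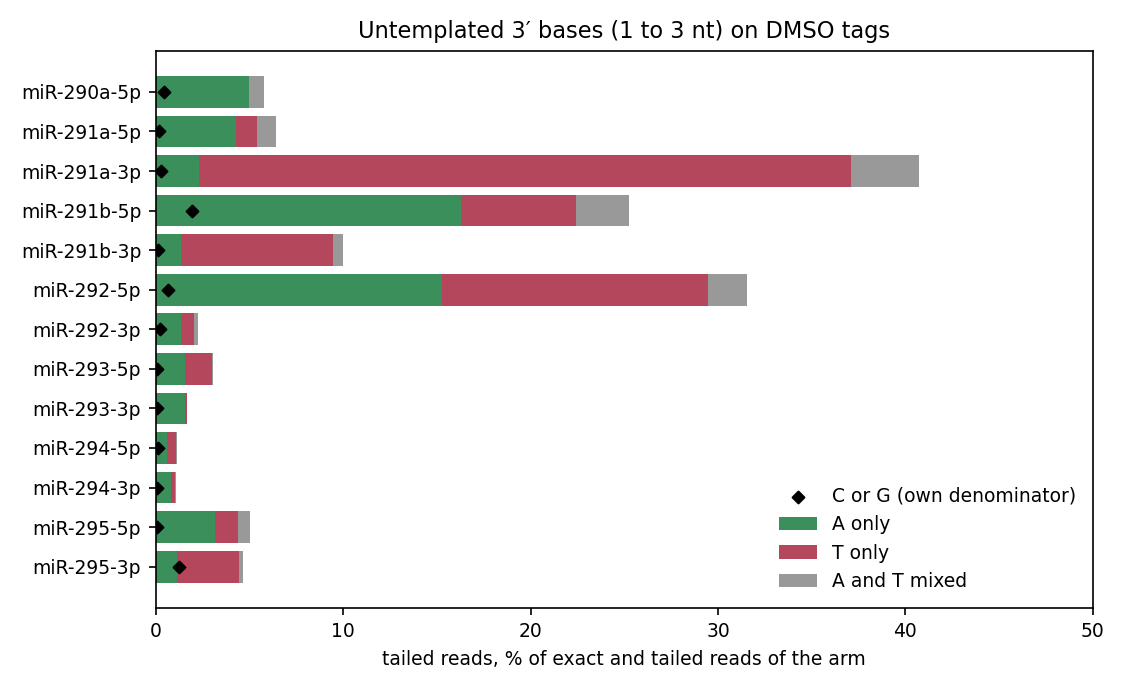
Reads with 1 to 3 untemplated A or T at the 3′ end, as a percentage of the exact and tailed DMSO reads of each arm, split by A only, T only and mixed tails; diamonds give C or G tails as a percentage of exact and C or G tailed reads. miR-291a-3p stands out by T (40.7% tailed in all), and miR-292-5p and miR-291b-5p carry A and T.

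The SC1 list holds short tags only, and on the cluster these were almost all pieces of one arm. Tags of 15 to 17 nt on the members held 26914 reads, 2.55% of the SC1 reads of these lengths, and miR-293-3p had 26611 of them, 98.9% (interval 98.7 to 99.0). Its starts were sharp, with 26503 reads (99.6%) at the RefSeq base, 84 at 1 base earlier and 10 at 1 base later. By length it had 8217 reads at 15 nt, 13096 at 16 nt and 5298 at 17 nt. The most frequent tag of each length held the whole seed, in capitals.
miR-293-3p, 15 nt: aGTGCCGCagagttt
miR-293-3p, 16 nt: aGTGCCGCagagtttg
miR-293-3p, 17 nt: aGTGCCGCagagtttgt

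The other arms shared the remaining 303 reads. miR-291a-5p had 105, with 97 at the RefSeq start, although 39 of the 105 also match another transcript. miR-292-5p had 84, of which 80 began at the RefSeq start and 59 were 15 nt long. miR-292-3p had 33, of which 31 began at its later start and 2 at the first. Another transcript also matches 10 of the 19 reads of miR-295-3p, 2 of miR-290a-5p and 1 each of miR-291b-5p, miR-294-5p and miR-294-3p. By arm miR-290a-5p had 22, miR-291b-5p 21, miR-295-3p 19, miR-293-5p 7, miR-294-3p 6, miR-291a-3p 4 and miR-290a-3p and miR-294-5p 1 each. miR-295-5p, miR-291b-3p and both minus-strand hairpins had 0, which allows up to 3 reads, or 0.0111% of the short reads of the cluster.

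Over the cluster 99.9% of the short reads began within 2 nt of the start of their arm, and without Mir293 the share was 91.2%. The share was lowest in miR-290a-5p, with 12 of 22 reads (54.5%, interval 32.2 to 75.6), followed by miR-293-5p with 4 of 7 reads (57.1%) and miR-291b-5p with 15.5 of 21 reads (73.8%), where shared tags count in part. Whether the short tags come from mature miRNAs was not tested. With no tags of these lengths in the DMSO list, an effect of SC1 and the length range of the list cannot be told apart.

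**Figure D5:**
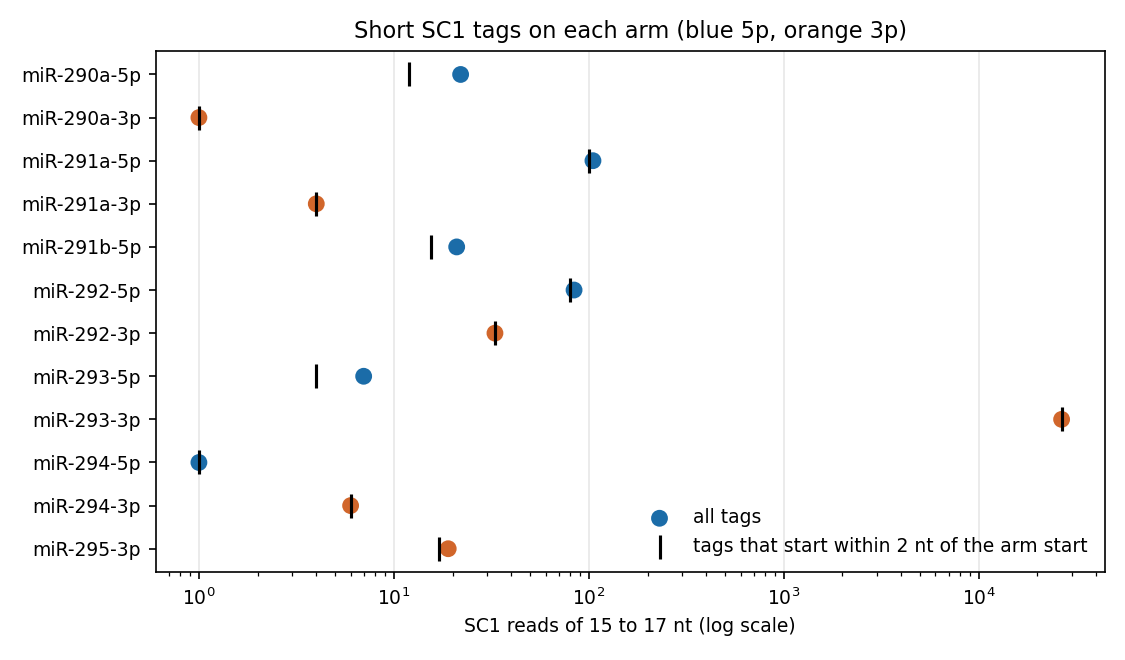
SC1 reads of 15 to 17 nt on each arm (x axis, log scale; circles give all tags, ticks those that start within 2 nt of the arm start). miR-293-3p has 26611 reads, and the next arm, miR-291a-5p, has 105; arms with 0 reads are left out.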

How the data were processed

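The authors deposited for each sample a list of distinct tags with raw read counts and lengths, not normalized, for 1 sample of SC1-treated and 1 of DMSO-treated cells. Of the upstream steps, the submitters' processing notes name the build, mm9; adapter, trimming, length filter and aligner were not given in the sources used here. Each tag was looked up, sense strand and without mismatch, in the miRNA hairpins of GENCODE M21, with positions from GRCm38; differences between the strain of the cells and the reference were not checked. An arm is the side of the hairpin midpoint that holds the centre of a tag; tags on several hairpins were split equally. Tailed tags were 18 to 26 nt long in all, with a matched part of 17 nt or more that ended inside the hairpin. Described in full were arms with 1000 or more reads, exact and tailed, with starts of 5% or more. Shares have exact Clopper-Pearson 95% intervals for counting error; with no molecular identifiers, reads can be copies of 1 molecule. The last line of the DMSO list, which gives a total and no tag, was left out. No test was possible with 1 sample per condition. The members, lists and alternatives were chosen with earlier results of these data known. The steps were tested on simulated data. The scripts ran in Python 3.11.15 with scipy 1.17.1 and numpy 2.4.6, and figures were drawn by matplotlib 3.10.9.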

Additional observations from a re-analysis of the deposited data

How the results depend on the processing

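No paired analysis was possible because there was 1 sample in each of the conditions. The 5p share of the cluster (44.2%) was 44.98% with tags of 20 to 24 nt and 45.2% with tailed tags added, 34.9% without miR-290a-5p and miR-293-3p, and 50.2% by distinct tags, which turns the order of the arms. The interval of the share by distinct tags, 44.6 to 55.7, includes equal arms. The share at the most frequent start (93.7%) was 83.4% without those arms and 31.6% by distinct tags. The share of 21 to 23 nt (84.8%) was 83.6% with tailed tags, 90.1% without those arms and 47.7% by distinct tags. The tailed share (5.33%) was 5.16% when tags under 10 reads were dropped, 4.13% for tails of 1 nt, 5.41% with a matched part of 20 nt or more, 8.54% without those arms and 66.2% by distinct tags. The SC1 share at the arm start (99.9%) was 99.93% when tags under 2 reads were dropped, 100% when those under 10 were, 99.8% at 17 nt, 91.2% without Mir293 and 73.0% by distinct tags. In miR-295-3p the later start had 46.7% of the distinct tags of both starts (interval 21.3 to 73.4), against 61.1% of their reads. The order turned, but with few tags the interval is wide and also holds the share by reads. Of 304 values of single members or arms, 203 stayed within their counting interval, 100 moved and 1 turned. Leaving out members was chosen after seeing the data. For these shifts the cause was not tested. Depth limits the arms with few reads, such as miR-290a-3p.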

Other observations

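Few reads began far from the start of their arm. In DMSO 38 of 629250 exact reads, 0.00604%, began more than 5 nt from the start of their arm.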
